A study of Mus musculus with 16 samples.

Results

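The hypoxia-inducible factors (HIFs) are the transcription factors through which cells answer low oxygen. Their messenger RNAs and those of their regulators were followed here in gastrocnemius, the large fast muscle of the calf. The members were set by name. They are the alpha subunit genes Hif1a, Epas1 and Hif3a, the shared beta subunit gene Arnt, the prolyl hydroxylase genes Egln1, Egln2 and Egln3, the ubiquitin ligase gene Vhl, the asparaginyl hydroxylase gene Hif1an, and Ankrd37, a HIF target that encodes an ankyrin repeat protein. A probe set, the group of probes that reads 1 transcript, was used if the platform annotation gave it exactly 1 gene symbol, and the brightest on average was taken for each gene. By this rule 9 of the 10 members were measured, out of 22180 genes measured in all. The 1 probe set for Ankrd37 also names Lrp2bp, so no value is given for Ankrd37.

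RNA came from 16 male FVB/n mice at 16 weeks of age, with 1 array per mouse. All carried floxed alleles of 3 FoxO genes on both chromosomes (FoxO1,3,4L/L, written Foxo1, Foxo3 and Foxo4 as genes) and ate a high-fat diet (58% fat) for the last 8 weeks. The deletion group (n = 8), named "FoxO1,3,4 knockdown" in the sample labels, also carried Mx1-Cre, in which an interferon-inducible promoter drives the recombinase. The promoter was switched on by 3 injections of polyinosine:cytidine (pI:pC), an RNA mimic, at 4 to 5 weeks of age, and the labels do not say separately whether the controls had them too. The controls (n = 8) were littermates without Cre, called wild type in the labels although they too carried the floxed alleles. The labels call the deletion endothelial-directed, but the Mx1 promoter is not itself an endothelial promoter, and how far the deletion reached other cells was not analysed here. Which mice shared a litter is not given in the sources used here. Cre was present in every deletion mouse and in no control, so effects of Cre and of the deletion cannot be told apart. The same holds for effects of pI:pC if the controls were not injected. The comparison asks how muscle transcripts under high-fat feeding differed with the FoxO deletion.

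In normal oxygen the EGLN enzymes (also called PHD1, PHD2 and PHD3) hydroxylate prolines in the HIF alpha proteins, and the VHL protein then binds them and marks them for destruction. HIF1AN, or FIH, hydroxylates an asparagine and blocks binding of coactivators. When oxygen is short the alpha proteins escape both steps, pair with ARNT and switch on genes of glucose use, vessel growth and cell stress, among them some EGLN genes. This control acts largely on protein, which an array does not measure. In muscle, HIF-1 alpha is known for driving glycolytic genes, and EPAS1 (HIF-2 alpha) is abundant in endothelium.

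The pathway feeds back on itself through short hypoxia response elements. Their core was searched here in the form ACGTG, and the form GCGTG was not searched. The 250 bases before the annotated start site are shown for Hif1a, the member that rose, and for the 3 prolyl hydroxylase genes. The letters are from RefSeq, build GRCm38.p6, on the strand of the gene, and capitals mark the core read on either strand (ACGTG or CACGT, which overlap in CACGTG).

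Hif1a promoter, chr12:73907617-73907866, plus strand: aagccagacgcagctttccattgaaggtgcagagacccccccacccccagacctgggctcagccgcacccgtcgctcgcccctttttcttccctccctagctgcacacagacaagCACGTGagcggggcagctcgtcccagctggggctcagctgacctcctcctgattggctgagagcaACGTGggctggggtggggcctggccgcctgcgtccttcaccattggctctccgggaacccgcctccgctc

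Egln1 promoter, chr8:124949255-124949504, minus strand: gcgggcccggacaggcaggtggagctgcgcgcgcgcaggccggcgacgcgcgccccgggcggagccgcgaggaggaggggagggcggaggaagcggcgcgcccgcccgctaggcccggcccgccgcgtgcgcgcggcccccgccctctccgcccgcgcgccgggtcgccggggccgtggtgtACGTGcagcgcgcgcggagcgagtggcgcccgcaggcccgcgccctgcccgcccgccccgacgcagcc

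Egln2 promoter, chr7:27166803-27167052, minus strand: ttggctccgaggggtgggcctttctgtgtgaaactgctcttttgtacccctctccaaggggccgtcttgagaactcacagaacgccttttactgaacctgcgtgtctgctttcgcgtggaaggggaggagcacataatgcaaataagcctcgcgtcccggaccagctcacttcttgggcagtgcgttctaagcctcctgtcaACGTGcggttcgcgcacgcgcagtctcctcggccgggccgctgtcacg

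Egln3 promoter, chr12:54203875-54204124, minus strand: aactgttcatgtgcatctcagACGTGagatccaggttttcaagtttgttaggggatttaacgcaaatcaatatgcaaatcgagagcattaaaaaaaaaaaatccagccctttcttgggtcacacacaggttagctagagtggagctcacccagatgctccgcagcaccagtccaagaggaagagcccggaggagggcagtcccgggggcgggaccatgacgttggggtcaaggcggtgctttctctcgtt

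In the Hif1a promoter the core was matched 3 times, at 135 and 134 bases before the start site, as overlapping readings of both strands, and at 70 bases before it. The match lay 68 bases before the start of Egln1, 48 bases before that of Egln2 and 229 bases before that of Egln3. A second Egln2 start site in the table had no match. Of the 9 members with a promoter in the table, 5 had the core in this form, the other one being Ankrd37 with 2 matches. Arnt, Hif1an, Hif3a and Vhl had no match to this form. The table has no entry for Epas1. Of all 32851 promoter windows of that length, 16.6% held the core. The FoxO motif GTAAACA, searched on both strands (TGTTTAC), was in no member's window and in 3.17% of all windows. These matches describe letters, not binding.

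Array medians lay between 4.43 and 4.61 log2 units. The targeted genes did not pass the threshold in this muscle RNA. Foxo1 differed by 0.07 (SE 0.12, limma adjusted p = 0.804), Foxo3 by 0.50 (SE 0.14, limma adjusted p = 0.0762) and Foxo4 by -0.24 (SE 0.10, limma adjusted p = 0.236). The position of their probes relative to the floxed exons is not known here, so these values do not measure the deletion. The 8 fast-fibre markers, among them Ckm and Myh4, averaged 12.8 in both groups, near the top of the scale, which reaches 13.8. RNA of a muscle mixes cell types, so more cells of a type and more RNA per cell cannot be told apart.

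Hif1a rose in the deletion mice, by 33.3% on the linear scale (95% interval 18.7% to 49.8%). Its log2 level lay between 7.11 and 7.35 in the controls (median 7.27, 7.26 ± 0.08) and between 7.35 and 8.00 in the deletion mice (median 7.66, 7.68 ± 0.21) (SD, n = 8 each, as for all values given so). The difference was 0.42 (SE 0.08, limma adjusted p = 0.014), and the exact two-sided permutation p was 3.11e-04. In 7 of 8 deletion mice Hif1a lay above every control, and deletion mouse 8, at 7.35, lay level with the highest control. Deletion mice 1 and 3 were the highest, at 8.00 and 7.85. The controls were tight, and the SD of the deletion mice was 2.58 times theirs. Over all 13601 genes tested 249 passed an adjusted p under 0.05, which is 1.83%, and 208 of them were higher (1.53%) and 41 lower (0.301%). Of the 9 members 1 was higher and 0 were lower by limma, and 1 also had an unadjusted p under 0.05, against 17.3% of all genes. The groups of mice were apart without overlap in 0 of the 9 members, against 0.353% of all genes. With each array centred on the median of its tested genes, the Hif1a difference was 0.36 (adjusted p = 0.0302). The split of all calls then moved to 126 higher and 67 lower. A second Hif1a probe set was under the array median in all 16 mice and differed by 0.20 (exact permutation p = 0.0996). A further probe set, annotated to Hif1a together with another gene, was left out by the single-symbol rule and has no value here.

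**Figure D1:**
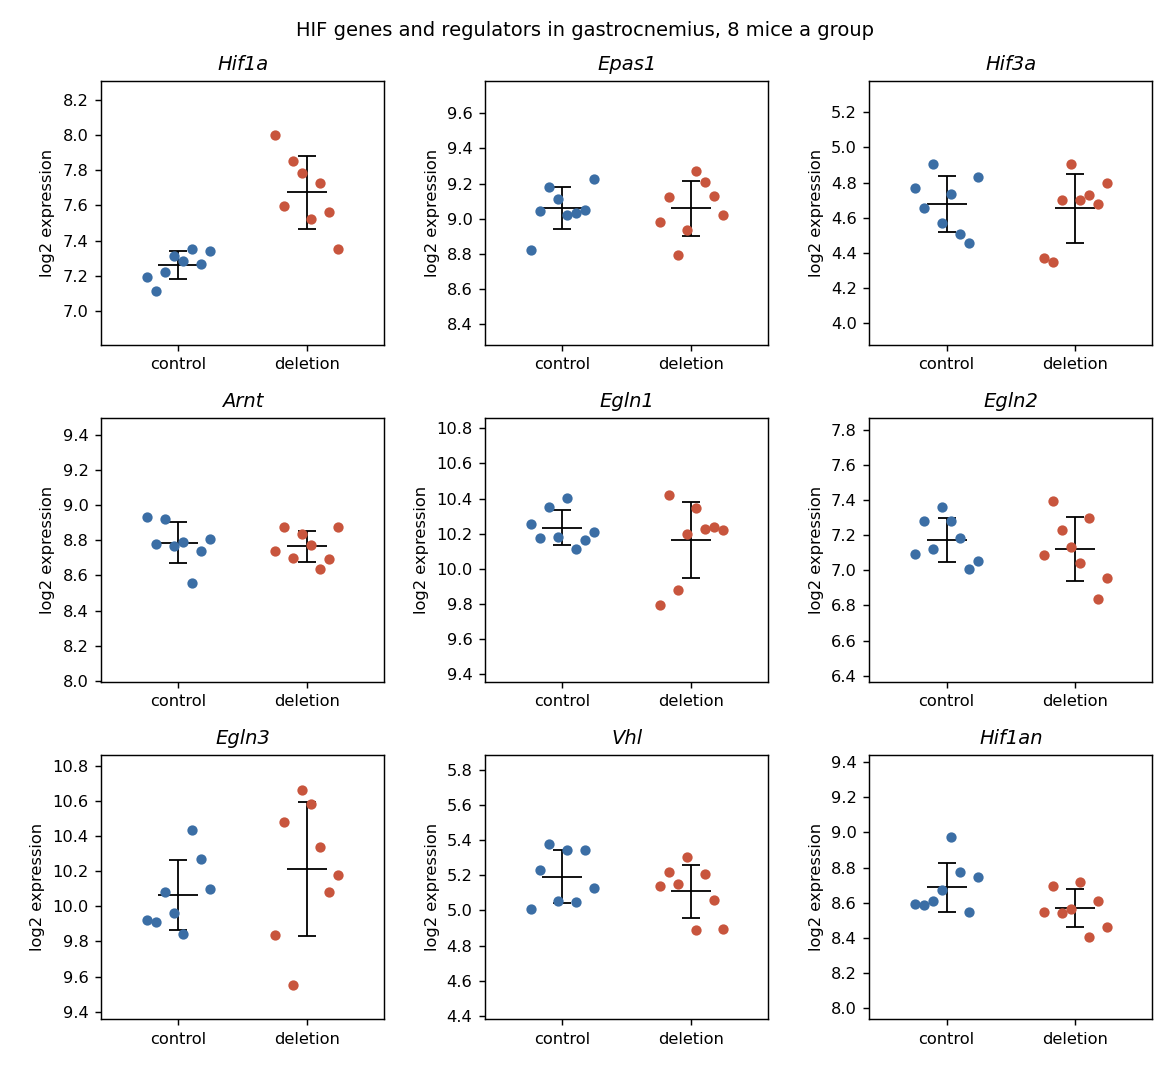
Log2 expression of the 9 measured members in each mouse, controls in blue and deletion mice in red, in the order of their numbers from left to right within a group. Bars are the mean and SD of 8 mice, and every panel spans the same 1.5 log2 units. In the Hif1a panel 7 of 8 deletion mice lie above every control, and the remaining deletion mouse lies just under the highest control.

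Epas1, the alpha subunit known for its endothelial expression, did not pass. It lay between 8.82 and 9.23 in the controls (median 9.05, 9.06 ± 0.12) and between 8.79 and 9.27 in the deletion mice (median 9.07, 9.06 ± 0.16). Its difference was -0.00 (SE 0.07, limma adjusted p = 0.991), with an interval from -10.3% to 11.2% on the linear scale. The groups overlapped over nearly their whole range, with 6 of 8 deletion mice inside the range of the controls.

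Hif3a, whose products include a short form that opposes the other alpha subunits, was dim, above its array median in 12 of 16 mice. It lay between 4.46 and 4.90 in the controls (median 4.69, 4.68 ± 0.16) and between 4.35 and 4.91 in the deletion mice (median 4.70, 4.65 ± 0.20), and the difference was -0.03 (SE 0.09, limma adjusted p = 0.914). Deletion mice 1 and 2, at 4.37 and 4.35, were the lowest of all 16, 5 lay within the range of the controls, and mouse 4, at 4.91, was just above it. Its interval was -13.5% to 11.7%, at a level where RMA compresses differences.

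Arnt encodes HIF-1 beta, the partner that every alpha subunit needs. It lay between 8.56 and 8.93 in the controls (median 8.78, 8.79 ± 0.12) and between 8.64 and 8.88 in the deletion mice (median 8.76, 8.77 ± 0.09). The difference was -0.02 (SE 0.06, limma adjusted p = 0.901), and all 8 deletion mice lay within the range of the controls. Its interval ran from -9.92% to 7.90%.

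None of the prolyl hydroxylase genes passed. Egln1, which encodes PHD2, the main oxygen sensor of the pathway, lay between 10.11 and 10.40 in the controls (median 10.20, 10.23 ± 0.10) and between 9.79 and 10.42 in the deletion mice (median 10.23, 10.17 ± 0.22), a difference of -0.07 (SE 0.08, limma adjusted p = 0.729). Deletion mice 1 and 3, at 9.79 and 9.88, stood below all controls, and the other 6 lay between 10.20 and 10.42. Egln2, which encodes PHD1, lay between 7.01 and 7.36 in the controls (median 7.15, 7.17 ± 0.12) and between 6.84 and 7.39 in the deletion mice (median 7.11, 7.12 ± 0.18), a difference of -0.05 (SE 0.08, limma adjusted p = 0.791). Deletion mouse 7 was lowest at 6.84 and deletion mouse 2 highest at 7.39.

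Egln3, which encodes PHD3 and is a known HIF target, was the most scattered member. It lay between 9.84 and 10.43 in the controls (median 10.02, 10.06 ± 0.20) and between 9.55 and 10.66 in the deletion mice (median 10.26, 10.21 ± 0.38), a difference of 0.15 (SE 0.14, limma adjusted p = 0.614). In the deletion mice 3 lay above every control and 2 below every control, again mice 3 and 1. Mouse 3 was at 9.55, while mouse 1, at 9.839, was barely under the lowest control, at 9.843. Its interval ran from -9.27% to 35.8%, which includes the size of the Hif1a rise. The Egln3 difference moved widely between fits, none of which passed. It was 0.44 (SE 0.13, adjusted p = 0.201) with the macrophage marker mean described below as a covariate and -0.25 (SE 0.21, adjusted p = 0.744) with the endothelial one. It was -0.02 (adjusted p = 0.976) without the 6 mice with high liver transcripts, and 0.32 without deletion mice 1 and 3, which were the lowest of their group for Egln3.

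Vhl, the substrate-binding part of the ubiquitin ligase, lay between 5.01 and 5.38 in the controls (median 5.18, 5.19 ± 0.15) and between 4.89 and 5.30 in the deletion mice (median 5.15, 5.11 ± 0.15). The difference was -0.08 (SE 0.08, limma adjusted p = 0.615), and 6 of 8 deletion mice lay within the control range. Hif1an lay between 8.55 and 8.97 in the controls (median 8.64, 8.69 ± 0.14) and between 8.40 and 8.72 in the deletion mice (median 8.56, 8.57 ± 0.11), a difference of -0.12 (SE 0.07, limma adjusted p = 0.38) with an exact permutation p of 0.071. In 3 of 8 deletion mice Hif1an was below every control, and in none was it above the highest. Its interval was -16.7% to 1.72%.

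**Figure D2:**
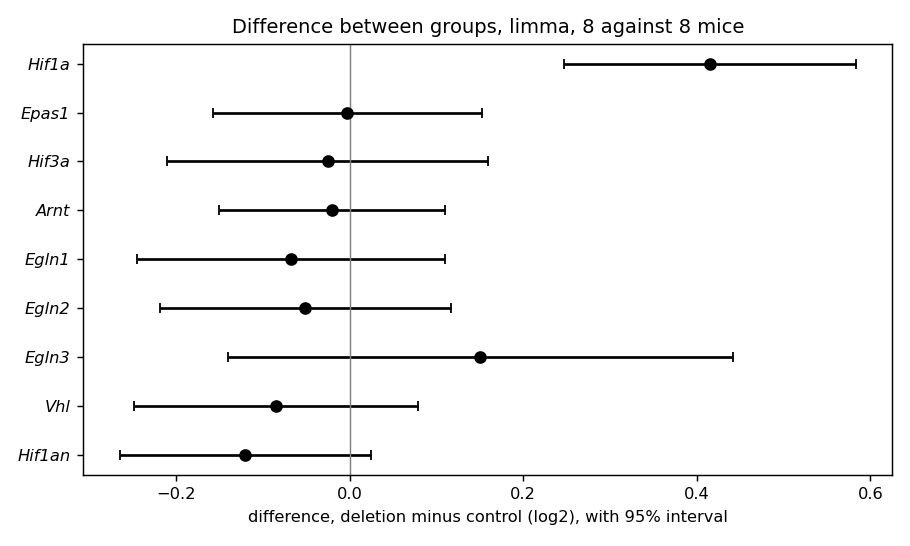
Difference between deletion mice and controls for each member on the log2 scale, with limma's 95% interval, 8 mice a group. The interval of Hif1a, 0.25 to 0.58, is the 1 that leaves out 0, and that of Egln3 is the widest.

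The lead of Hif1a over the other members was described by the log2 ratio of Hif1a to each of them within a mouse, 8 comparisons in all. The ratio to Hif1an was higher by 0.53 and that to Vhl by 0.50, both in 8 of 8 deletion mice beyond the controls (exact permutation p = 1.55e-04, the smallest possible, adjusted over the 8 comparisons 6.22e-04). The ratio to Epas1 was higher by 0.42 (exact permutation p = 0.0014, adjusted 0.0028), and 6 of 8 deletion mice exceeded the highest control ratio. The ratios to Egln2, Egln1, Hif3a and Arnt were higher by 0.47, 0.48, 0.44 and 0.44 (exact permutation, adjusted p at most 0.00373). The ratio to Egln3 differed by 0.26 and did not pass (exact permutation p = 0.218, adjusted 0.218). All 8 ratios share Hif1a, which was chosen for them because it had passed over all genes. They describe the size of its lead, and their p-values are not separate evidence of its rise or of a difference from the other members.

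Within groups the members did not vary together in a way that held over the 36 pairs. After removal of group means, 1 pair had an unadjusted permutation p under 0.05, and 0 passed after adjustment by either coefficient. That pair was Hif1a and Egln1 over 16 mice (Pearson r = -0.67, permutation p = 0.0242, adjusted 0.561; Spearman rho = -0.59, permutation p = 0.0286, adjusted 0.708). It was -0.17 within the controls and -0.76 within the deletion mice, where mice 1 and 3 held both the highest Hif1a and the lowest Egln1. The 2 mice farthest from the median of Hif1a after this removal were deletion mice 1 and 8, and without them r was -0.60. Without deletion mice 1 and 3 it was -0.16 (rho = -0.27), so the relation rests on mice 1 and 3.

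Markers of other cell types also differed between the groups. Of 16 endothelial markers, among them Cdh5, Pecam1 and Erg, 12 rose. Cldn5, Sox17, Robo4 and Sox18 did not pass, with Robo4 at -0.03 and Sox18 at -0.08. The mean of all 16 lay between 6.78 and 7.07 in the controls and between 6.93 and 7.65 in the deletion mice, 7 of which were above every control. Among the deletion mice the order was not that of Hif1a, and mouse 5, with the highest endothelial mean at 7.65, had the second lowest Hif1a. Of 10 macrophage markers 3 rose (C1qa, Mertk and Itgam), and their mean lay between 5.91 and 6.56 in the controls and between 6.18 and 7.46 in the deletion mice. The 2 highest macrophage means were those of deletion mice 1 and 3, at 7.29 and 7.46, the mice with the highest Hif1a. The macrophage order among the deletion mice was not that of Hif1a either. Deletion mouse 4, with Hif1a at 7.79, had a macrophage mean of 6.51. Deletion mouse 7, with Hif1a at 7.56, had one of 6.56. Deletion mouse 8, with the lowest Hif1a of its group, also had the lowest endothelial and macrophage means of it, at 6.93 and 6.18. The neutrophil gene S100a8 rose too, the other tested neutrophil gene, Csf3r, did not pass, and 1 of 6 fibroblast markers, Fmod, fell. For S100a8, 6 controls and no deletion mouse were under their array median, so it met the filter for testing through the deletion mice. The neutrophil gene S100a9 was under the filter and not tested. It differed by 1.38, with every control under its array median. No marker of pericytes, Schwann cells, adipocytes, liver or slow fibres passed. No marker of the endothelial or macrophage list was under its array median in all mice. Their part in the Hif1a difference was not tested.

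The same comparison was run with marker means as covariates and with mice left out. With the endothelial mean the Hif1a difference was 0.33 (SE 0.14) and the call was lost (limma adjusted p = 0.477), in a fit that called 5 genes in all. With the macrophage mean as a covariate, an alternative chosen after the data were seen, it was 0.30 (SE 0.09, adjusted p = 0.208, 39 genes called). Both means differ between the groups, so marker level and group are partly confounded in these fits. Without deletion mice 1 and 3, left out after the data were seen for their macrophage means, Hif1a differed by 0.33. These mice also had the highest Hif1a, so a smaller difference without them follows from the choice, and its filled point in the plot of settings is a description only. Liver transcripts were present in some muscles, and 6 mice (2 controls and 4 deletion mice) had Alb, the albumin gene, above 10 log2 units, the lowest of them at 10.02. Without them, again a choice made after the data were seen, the Hif1a difference was 0.34 (SE 0.10, adjusted p = 0.256, 7 genes called), with an exact permutation p of 0.00952 where 6 against 4 mice allow no less than 0.00476. Leaving out any single mouse gave 0.37 to 0.46, and all 16 such fits kept the call (adjusted p between 0.00208 and 0.0332).

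**Figure D3:**
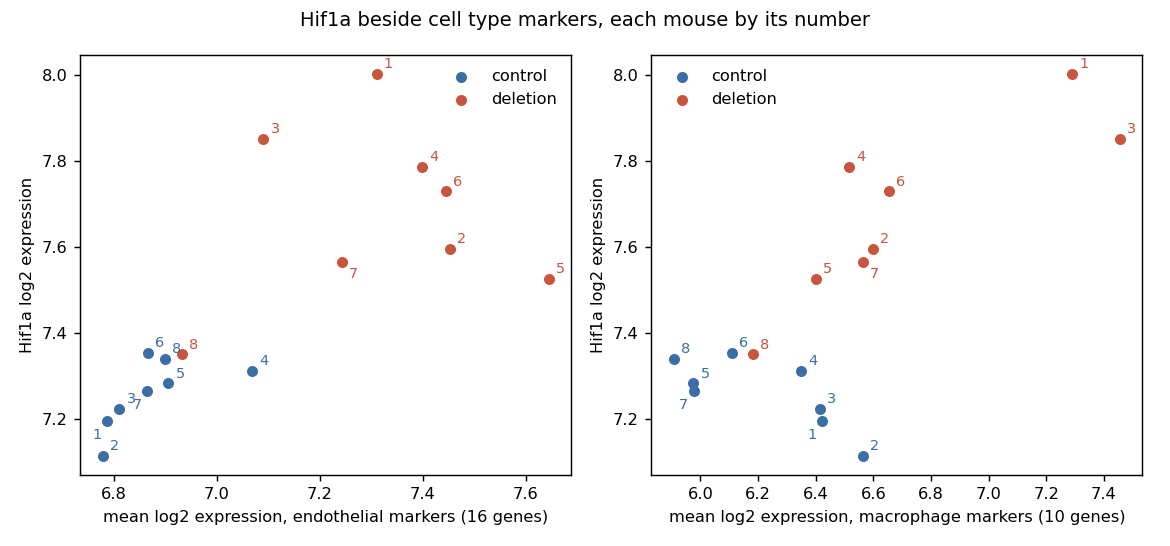
Hif1a in each mouse against the mean log2 level of 16 endothelial markers (left) and 10 macrophage markers (right), each point a mouse labelled with its number, controls in blue and deletion mice in red. Deletion mouse 8 sits with the controls on both axes of the left panel, and deletion mice 1 and 3 have the highest macrophage means.

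**Figure D4:**
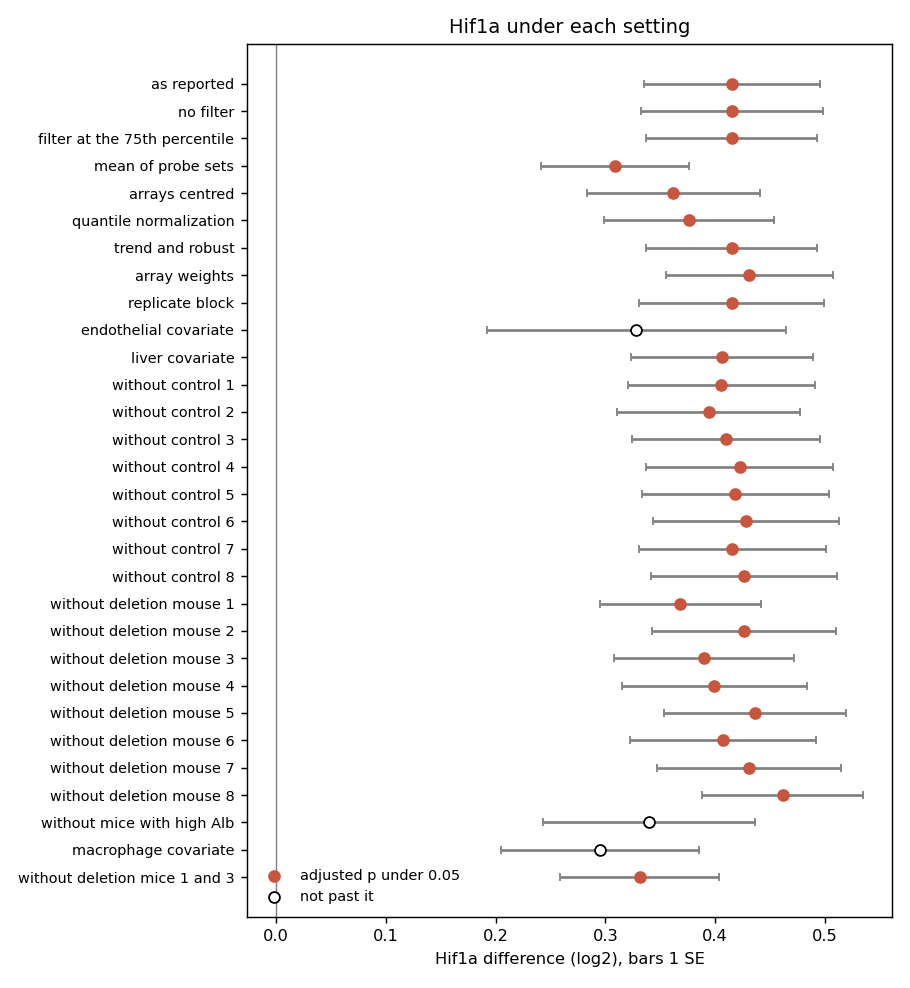
Hif1a difference between the groups on the log2 scale under each way of processing and with mice left out, bars 1 SE. Filled points pass an adjusted p under 0.05. The values run from 0.30 to 0.46, and the 3 open points are the fits with the endothelial or the macrophage covariate and the fit without the mice with high Alb.

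Other regulators of the HIF proteins were read from a list of 21 genes, 17 of them tested. By limma 0 of 17 passed, and 4 of 17 had an unadjusted p under 0.05, against 17.3% of all genes tested. Their median difference was 0.04, against 0.00 for all genes tested. Cul2, the scaffold of the VHL ubiquitin ligase, differed by -0.18 (SE 0.06, limma adjusted p = 0.121) with 5 of 8 deletion mice below every control, and Eloc (elongin C), which joins VHL to CUL2, by -0.31 (SE 0.13, limma adjusted p = 0.219). Their partner Elob (elongin B) differed by 0.15 (SE 0.09, limma adjusted p = 0.384), and the coactivator Ep300 by -0.10 (SE 0.06, limma adjusted p = 0.453). The other bHLH-PAS genes, relatives of the HIFs that also pair with or replace ARNT, were Ahr, the dioxin receptor, at 0.42 (SE 0.15, limma adjusted p = 0.151), and Arnt2 at 0.21 (SE 0.10, limma adjusted p = 0.276).

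HIF target genes were read from 3 lists of 60 genes together, of which 50 were tested. By limma 2 rose and 0 fell, 4% against 1.83% of all genes tested, and 14 of the 50 had an unadjusted p under 0.05, against 17.3% of all genes tested. The median difference was 0.11, with 41 of 50 above 0, against 50.2% of all genes tested. By list, 14 of 15 targets of glucose use were above 0, 16 of 18 for vessels, blood and matrix, and 11 of 17 for stress and mitochondria. The part of the cell type markers in this tilt was not tested. The 2 that rose were Apln and Wsb1. Apln met the filter for testing through the deletion mice, and Wsb1 was near the threshold, so the 4% is a description only.

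Apln encodes the vessel growth peptide apelin. It lay between 3.87 and 4.91 in the controls (median 4.40, 4.36 ± 0.31) and between 4.71 and 6.35 in the deletion mice (median 5.58, 5.55 ± 0.54), a difference of 1.19 (SE 0.19, limma adjusted p = 0.00564), and 7 of 8 deletion mice exceeded the highest control. In the controls 6 of 8 mice were under their array median, where RMA compresses differences. No deletion mouse was, so Apln met the filter for testing through the group in which it was higher. Deletion mouse 1 was the highest at 6.35 and deletion mouse 8 the lowest of its group at 4.71. With the endothelial covariate the difference was 0.57 (adjusted p = 0.548), with the macrophage covariate 1.01 (adjusted p = 0.0817), and with the 6 mice of high Alb left out 0.86 (adjusted p = 0.210).

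Wsb1 encodes a ubiquitin ligase subunit. It lay between 5.68 and 6.06 in the controls (median 5.85, 5.85 ± 0.12) and between 6.00 and 6.66 in the deletion mice (median 6.19, 6.23 ± 0.23), a difference of 0.38 (SE 0.09, limma adjusted p = 0.0387), with 5 of 8 deletion mice above every control. This call was near the threshold. It was lost in 12 of 16 fits without a single mouse, those without controls 1, 2, 3, 5, 6, 7 or 8 and those without deletion mice 1, 2, 3, 6 or 7, with adjusted p-values of 0.0524 to 0.0838. Arrays centred on the medians of their tested genes gave 0.32 (adjusted p = 0.0768). With the macrophage covariate the Wsb1 difference was 0.19 (adjusted p = 0.430), with the endothelial covariate 0.39 (adjusted p = 0.470), and without the high-Alb mice 0.38 (adjusted p = 0.233).

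Of 15 tested targets that serve glucose use, 0 passed. Their median difference was 0.10. Slc2a1, the glucose transporter GLUT1, lay between 6.33 and 6.91 in the controls (median 6.69, 6.67 ± 0.20) and between 6.70 and 7.75 in the deletion mice (median 7.03, 7.13 ± 0.40), a difference of 0.47 (SE 0.14, limma adjusted p = 0.108). Pfkp and Pfkl, forms of phosphofructokinase, differed by 0.27 (SE 0.11, limma adjusted p = 0.224) and 0.20 (SE 0.11, limma adjusted p = 0.356). Pdk1, which restrains pyruvate dehydrogenase, was the single gene of the list below 0, at -0.08 (SE 0.08, limma adjusted p = 0.652). The glycolytic genes Ldha and Pgk1 differed by 0.01 (SE 0.07, limma adjusted p = 0.944) and 0.01 (SE 0.07, limma adjusted p = 0.959). These were the smallest differences of the list in either direction. Gapdh, Tpi1, Pkm and Pgam1 differed by 0.09, 0.10, 0.10 and 0.17. The Ldha probe set averaged 6.27 in the controls, beside 13.13 for Gapdh, and how well it reads its gene was not tested. These glycolytic genes were named after their values were seen.

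Of 18 tested targets for vessels, blood and matrix, 1 passed (Apln), and the median difference was 0.20. Hmox1, a heme-degrading enzyme, differed by 0.77 (SE 0.26, limma adjusted p = 0.144), and Adm, the vasodilator peptide adrenomedullin, by 0.56 (SE 0.20, limma adjusted p = 0.161). Each spread widely in the deletion mice, Hmox1 from 5.20 to 7.18 and Adm from 4.96 to 6.73. Cxcr4, a chemokine receptor, differed by -0.35 (SE 0.11, limma adjusted p = 0.126) with 4 of 8 deletion mice below every control. P4ha1, a collagen prolyl hydroxylase, differed by -0.01 (SE 0.09, limma adjusted p = 0.983). Vegfa, the best known HIF target of vessel growth, differed by 0.14 (SE 0.14, limma adjusted p = 0.645), and was named after its value was seen.

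Of 17 tested targets for stress and mitochondria, 1 passed (Wsb1), and the median difference was 0.01. Ddit4, an inhibitor of mTORC1 that other stresses also induce, lay between 5.83 and 6.62 in the controls (median 6.31, 6.29 ± 0.29) and between 6.25 and 8.40 in the deletion mice (median 6.98, 7.08 ± 0.67), a difference of 0.79 (SE 0.23, limma adjusted p = 0.0876) with 6 of 8 deletion mice above every control. Bnip3, a mitophagy receptor, differed by 0.32 (SE 0.12, limma adjusted p = 0.199). On the other side Narf differed by -0.16 (SE 0.08, limma adjusted p = 0.296), the nuclear receptor Rora by -0.14 (SE 0.07, limma adjusted p = 0.303) and Insig2, a brake on cholesterol synthesis, by -0.10 (SE 0.08, limma adjusted p = 0.54). Without deletion mouse 8 the number of targets past the threshold was 7, the added ones being Slc2a1, Pfkp, Hmox1, Adm and Ddit4, while the number over all genes was 680, or 5% of those tested. Bnip3l, Aldoa, Eno1, Gpi1, Trf and Loxl2 were among those that had no single-symbol probe set, and Pgf, Epo and Car12 were under the filter.

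**Figure D5:**
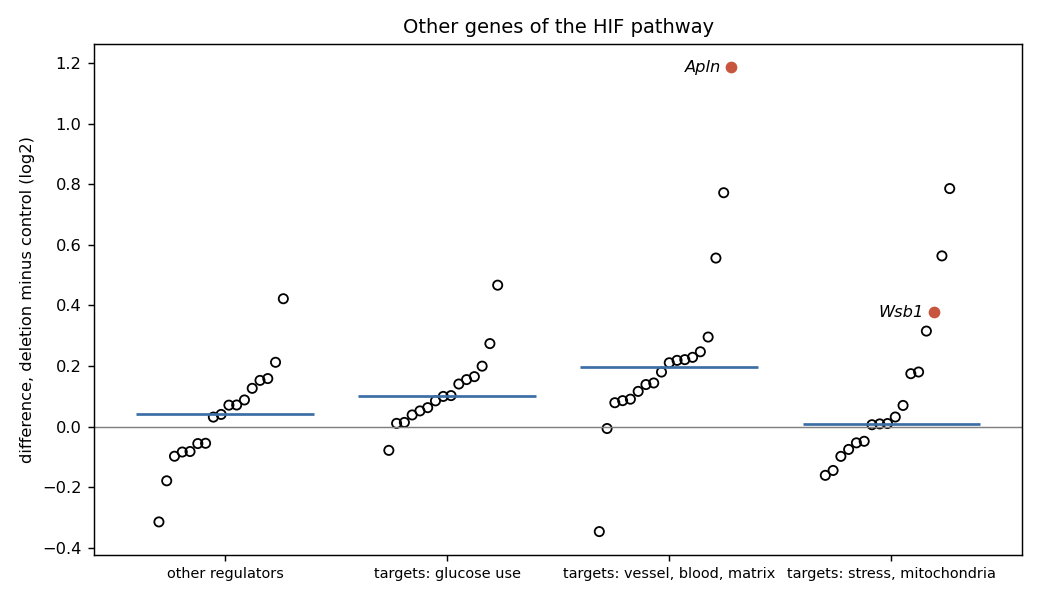
Difference between deletion mice and controls (log2) for each tested gene of 4 lists of the HIF pathway, sorted within a list, with 17, 15, 18 and 17 genes from left to right. Filled points passed an adjusted p under 0.05 (Apln and Wsb1), and blue lines are list medians, from 0.01 to 0.20.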

How the data were processed

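The authors deposited 1 log2 value per probe set and mouse. The submitters' processing notes name RMA and oligo, without versions. RMA brings arrays to a common distribution, so a shift of all transcripts would not be seen, and it compresses dim probe sets. Per the labels, 250 ng of total RNA was used per mouse.

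Of 41345 probe sets 23521 had 1 gene symbol, updated through gene identifiers to RefSeq of GRCm38.p6. The brightest per gene was tested if it exceeded its array's median in 8 or more of the 16 mice, which left 13601 genes. Groups were compared with limma 3.58.1 (lmFit, eBayes, two-sided, Benjamini-Hochberg over all genes tested, threshold 0.05) in R 4.3.3, and single genes by exact permutation over 12870 splits. Pairs of members were permuted within groups 100000 times. Adjusted p-values in the text are limma's unless a permutation is named. The members and lists were chosen with earlier results of these data known. Named genes are the members, the targeted FoxO genes, per pathway list and direction the 3 or fewer genes of lowest p, and the 5 genes closest in pattern to a called member, without predicted genes and Riken clones. Genes outside this rule were named after their values were seen. The mice are labelled separate biological replicates, and their number limits the precision. Alternatives were other filters, probe set averages, scalings, variance models, array weights, a replicate block, marker covariates and left-out mice.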

Additional observations from a re-analysis of the deposited data

Results flagged for a closer look

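Pfkp in deletion mouse 8 stood apart from the rest of its group, at 5.12 log2 units where the other deletion mice lay between 5.63 and 6.05. It was 1 flag among 60 groups of 8 mice examined, over 30 genes, where chance flags about 1 in 20. No member of the HIF group had a mouse that stood apart in this sense.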

How the results depend on the processing

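The rise of Hif1a kept its direction in all 29 alternatives run and its call in 26, and the number of members higher was 0 in place of 1 with the endothelial covariate, with the macrophage covariate and without the mice with high Alb. The number lower was 0 throughout. The number of HIF targets higher, 2 as reported, was 1 with no filter, a filter at the 75th percentile, arrays centred, quantile normalization, the liver covariate and without deletion mice 1 and 3, and 0 with the endothelial or macrophage covariate and without the mice with high Alb, and ran from 1 to 7 without single mice. The number of targets lower was 0 in all. The cause of these losses was not tested. The count of all genes called, 249 as reported, was 137 with no filter, 147 with the liver covariate, 135 without deletion mice 1 and 3, 505 at an adjusted p under 0.10, 39, 5 and 7 in the fits with the macrophage and endothelial covariates and without high Alb, and between 107 (without deletion mouse 6) and 680 (without deletion mouse 8) without single mice. The higher share moved from 83.5% to 65.3% with arrays centred and 72.4% with quantile normalization.

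Some differences, most of them near 0, changed sign. Epas1 became 0.00345 with array weights, 0.0946 with the macrophage covariate, 0.0547 without deletion mice 1 and 3, and lay between -0.0365 and 0.0354 without single mice. Hif3a became 0.0166 with quantile normalization, 0.0733 with the endothelial and 0.0274 with the macrophage covariate, 0.0142 without deletion mice 1 and 3 and 0.0057 without high Alb, and lay between -0.0613 and 0.0183 without single mice. Arnt became 0.0173 with the endothelial covariate and lay between -0.0536 and 0.00057 without single mice. Egln1 became 0.0894 with the macrophage covariate and 0.0426 without deletion mice 1 and 3. Egln3, at 0.15 as reported, became -0.25 with the endothelial covariate and -0.017 without high Alb. None of these passed the threshold under any alternative. Hif3a, Vhl and Apln have no value with the filter at the 75th percentile, where they were not tested.

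Mice of the same number in the 2 groups share a number and nothing else in the labels. Their deviations correlated by over 0.1 in 4 of 8 pairs. With a replicate block the Hif1a difference was 0.42 (adjusted p = 0.0382), and 213 genes were called.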

Other observations

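The genes that varied most like Hif1a from mouse to mouse, after removal of group means, were Eln, which encodes elastin (Pearson r = 0.89, Spearman rho = 0.79), C77080 (r = 0.86, rho = 0.74), Cyth3, an ARF exchange factor (r = 0.86, rho = 0.84), the ETS factor gene Elf1 (r = 0.82, rho = 0.74) and Ptpra, a receptor phosphatase (r = 0.79, rho = 0.56). These are the top 5 of 12794 genes compared over 16 mice, picked for their likeness, and are given with no p. Of them Elf1 rose, by 0.27 (limma adjusted p = 0.0365), and Eln differed by 0.51 (adjusted p = 0.137).

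The deletion mice scattered more than the controls for Hif1a, Egln1 and Egln3, with SDs 2.58, 2.19 and 1.89 times as large. For Egln2, Epas1 and Hif3a the SDs were 1.45, 1.28 and 1.23 times as large. For Vhl, Hif1an and Arnt they were not larger, at 0.999, 0.767 and 0.759 times. A larger SD in the deletion mice was found in 63.8% of all genes tested. Fibroblast marker means of deletion mice 1 and 3, at 9.99 and 10.11, were also the highest of the 16 mice.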
